A study of Mus musculus with 12 samples.

Results

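The zinc-dependent histone deacetylases of classes I, IIa and IIb are encoded by Hdac1 to Hdac10, and these 10 genes were taken by symbol from a deposited table of 34986 genes. Their transcripts were measured in whole livers from female C57BL/6 mice, 16 weeks old, of which 6 had been given valproic acid and obeticholic acid (VPA_OCA) and 6 valproic acid alone (VPA). Valproic acid is used against epilepsy and is known for liver toxicity, and obeticholic acid is a synthetic agonist of FXR, the nuclear receptor for bile acids. The doses and the length of treatment are not stated in the labels. All 12 mice had received valproic acid and livers without it were not analysed here, so the comparison shows the addition of obeticholic acid and not the effect of valproic acid itself.

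Histone deacetylases remove acetyl groups from lysines of histones and other proteins, which in chromatin usually goes with lower transcription. Class I enzymes sit in the nucleus, most of them as catalytic subunits of corepressor complexes, class IIa enzymes shuttle between cytoplasm and nucleus under the control of kinases and 14-3-3 proteins, and class IIb enzymes act mainly on cytoplasmic substrates. Valproic acid is known to inhibit the enzymes of classes I and IIa at the protein level. RNA sequencing reads the abundance of the transcripts and not the activity of the enzymes.

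Abundance is given as normalized counts, in which the authors scaled each library's estimated reads by 1 factor. Levels of different genes are set side by side only in the authors' FPKM, which also divides by gene length. Column totals lay between 20236900 and 22087711 normalized counts, and the worth of 1 read, taken from the commonest low value, gave estimated depths of 17879222 to 37766890 reads per library. Groups were compared with limma on log2(normalized count + 1) over 19006 genes that reached a normalized count of 1 in at least 6 libraries. Adjusted p-values are Benjamini-Hochberg values over all of these genes with a threshold of 0.05, and fold changes on this scale understate changes of low genes. All 10 deacetylase genes passed the filter. The hepatocyte markers Alb, Apoa1, Ttr, Serpina1a, Cps1 and Tat made up 9.08% to 14.6% of the normalized counts of each library. Libraries also fell apart by the replicate number in their labels, with numbers 1 to 3 at or below -10.3 and numbers 4 to 6 at or above 16.3 along a first principal component that held 40.4% of the variance. The labels give no batch, and each number set holds 3 libraries per group. VPA replicates 4 and 5 held skeletal muscle transcripts, with the muscle actin Acta1 at 164 and 25.0 normalized counts against at most 3.22 in the other 10 libraries.

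The deacetylase genes differed widely in level among themselves. Over all 12 libraries the class I gene Hdac1 averaged 22.8 FPKM (19.2 to 26.2), the class IIa gene Hdac5 18.4 FPKM (12.7 to 24.0) and the class I gene Hdac3 17.7 FPKM (15.5 to 20.4). The ranges of these 3 genes overlapped in this order, and every library of all 3 lay above every library of Hdac2, at 10.7 FPKM (9.36 to 12.6). The class IIb genes followed, Hdac6 at 8.80 FPKM (5.31 to 11.4) and Hdac10 at 5.38 FPKM (4.37 to 6.62). Hdac4 averaged 3.18 FPKM, Hdac8 2.37 FPKM and Hdac7 1.85 FPKM, each overlapping the next, and none of them reached the lowest library of Hdac10. Hdac9 was the lowest, at 0.213 FPKM (0.117 to 0.364), below every library of the other 9 genes.

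**Figure D1:**
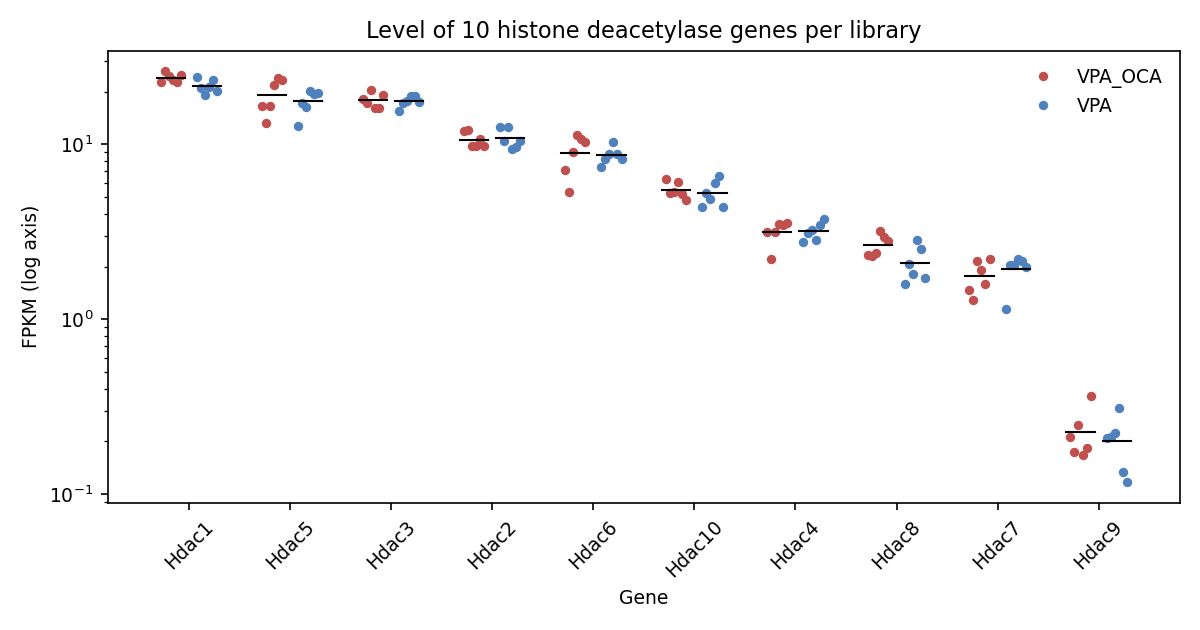
FPKM (log axis) of the 10 histone deacetylase genes in each library, ordered by their mean, with VPA_OCA libraries in red left of VPA libraries in blue and a black bar at each group mean (n = 6). The groups overlap for every gene, while the genes span from 0.213 FPKM for Hdac9 to 22.8 FPKM for Hdac1.

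This order depends on the gene length used. The listed length of Hdac1 is 925 bases, whereas its longest protein-coding transcript in GENCODE M21 has 2038 bases, and for Hdac4 the figures are 2228 and 8100 bases. Only for Hdac3 is the listed length, 2192 bases, above the longest coding transcript, 2032 bases. With the longest coding transcript in place of the listed length, Hdac3 was the highest of the 10 genes, at 19.1 on the FPKM scale, and its libraries did not overlap those of Hdac1, at 10.4. Hdac5 then averaged 6.70, Hdac2 5.54, Hdac10 4.62 and Hdac6 4.57, and Hdac4, at 0.876, lay below Hdac8 at 1.88 and Hdac7 at 1.43. Hdac9 was the lowest with either length, at 0.0876 with the second. Class I made up 58.9% ± 5.44 of the summed FPKM of the 10 genes in VPA_OCA and 58.7% ± 3.44 in VPA (SD, n = 6 each), and 67.0% ± 4.33 and 67.0% ± 2.53 with the longest coding transcript. Hdac11, the class IV enzyme that is not among the 10, stood above all of them with either length. It measured 85.8 ± 13.5 FPKM in VPA_OCA and 79.3 ± 7.39 FPKM in VPA (SD, n = 6 each), and on normalized counts its limma adjusted p was 0.87.

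None of the 10 genes passed the test between VPA_OCA and VPA, in a comparison where 0.721% of all genes did so (137 of 19006, by limma with an adjusted p under 0.05). Of all genes 0.442% were higher and 0.279% lower in VPA_OCA. At an unadjusted p under 0.05, 1 of the 10 was reached, Hdac8, against 9.55% of all genes. The median log2 fold change of the 10 was 0.04, with 7 positive and 3 negative, and that of all tested genes was -0.0005. For no member did the 6 VPA_OCA values lie wholly above or below the 6 VPA values, which held for 1.44% of all genes. Both FXR target genes that were looked up for scale passed in the same livers. The bile acid exporter subunit Slc51b measured 174 ± 44.6 normalized counts in VPA_OCA and 19.1 ± 8.78 in VPA, and the bile acid synthesis enzyme Cyp8b1 528 ± 252 and 2484 ± 689 (SD, n = 6 each, limma adjusted p = 5.7e-05 and 0.0013).

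The test limits the size of a difference more tightly for some genes than for others. The 95% interval of the fold change lay within 1.5-fold in either direction for 8 of the 10 genes and within 2-fold for all 10. The exceptions to the narrower bound were Hdac8 and Hdac9. These intervals are for single genes and are not adjusted for the number of genes.

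**Figure D2:**
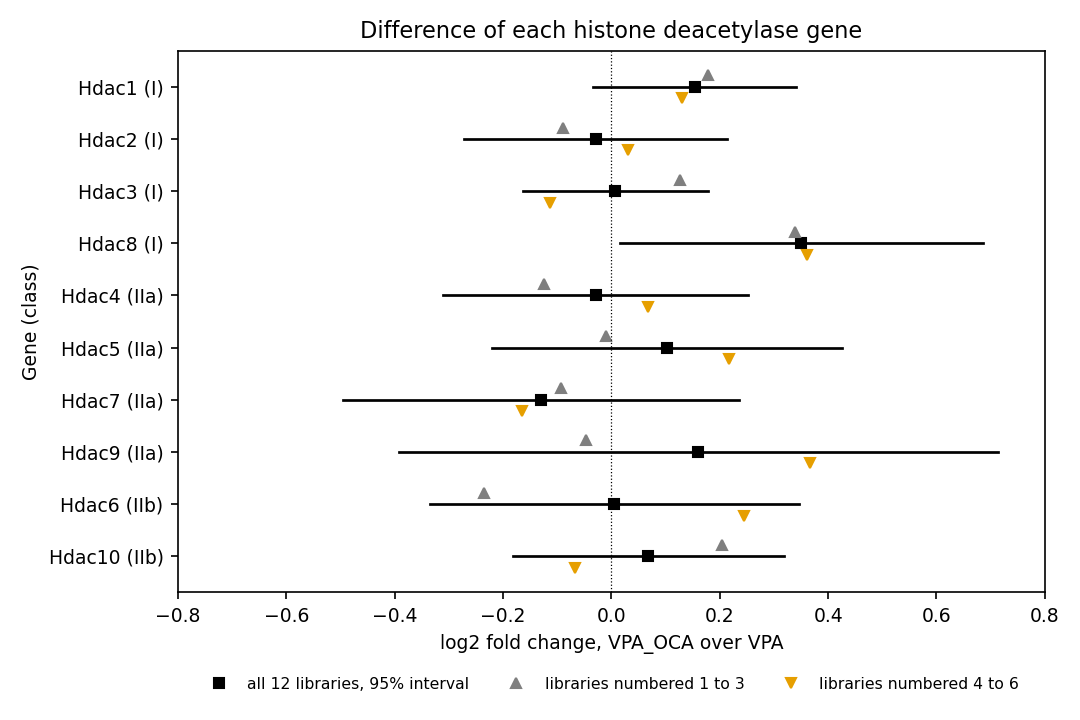
log2 fold change of VPA_OCA over VPA for the 10 genes grouped by class, with black squares and bars for all 12 libraries and their 95% interval (limma, log2(normalized count + 1)), grey triangles for libraries numbered 1 to 3 alone and orange triangles for those numbered 4 to 6 alone (3 per group). The interval of Hdac8 alone leaves out 0, before adjustment, and 7 of the 10 genes have opposite signs in the 2 sets of libraries. The share with opposite signs was not counted over all genes.

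Among the class I genes, Hdac1 (ENSMUSG00000028800, chromosome 4, 129516104 to 129542713, GRCm38) encodes a catalytic subunit of the Sin3, NuRD, CoREST and MiDAC complexes. It ranged from 442 to 533 normalized counts in VPA_OCA (median 467) and from 390 to 494 in VPA (median 411). VPA replicate 1, the highest of its group, lay above 5 of the 6 VPA_OCA libraries, and the groups overlapped. The log2 fold change was 0.15 ± 0.09 (SE), with a 95% interval of -0.03 to 0.34 and a limma adjusted p of 0.65. Hdac2 (ENSMUSG00000019777, chromosome 10, 36974544 to 37001889), its close paralog in the same complexes, ranged from 337 to 442 normalized counts in VPA_OCA (median 370) and from 326 to 464 in VPA (median 369). Its log2 fold change was -0.03 ± 0.11 (SE), with an interval of -0.27 to 0.21. The group medians were thus almost equal while single livers differed by over 100 normalized counts within each group.

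Hdac3 (ENSMUSG00000024454, chromosome 18, 37935844 to 37954988) encodes the catalytic subunit of the NCoR/SMRT complex, which restrains lipid synthesis genes in mouse liver. It ranged from 755 to 918 normalized counts in VPA_OCA (median 831) and from 748 to 886 in VPA (median 846). The coefficient of variation was 7.36% in VPA_OCA and 6.81% in VPA, and the groups covered nearly the same range. The log2 fold change was 0.01 ± 0.08 (SE) with an interval of -0.16 to 0.18, the narrowest of the 10, which leaves out fold changes above 1.13 or below 0.892.

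Hdac8 (ENSMUSG00000067567, chromosome X, 102284639 to 102505359) encodes a class I enzyme that works outside these complexes and, in human cells, deacetylates the cohesin subunit SMC3. It measured 75.5, 77.0 and 75.1 normalized counts in VPA_OCA replicates 1 to 3 and 106, 96.6 and 90.2 in replicates 4 to 6, against 54.2, 64.0 and 61.5 in VPA replicates 1 to 3 and 90.7, 82.1 and 58.0 in replicates 4 to 6. Every VPA_OCA library lay above the VPA library of the same number, 6 of 6, as was so for 4.52% of all genes. The labels do not pair the mice by number, so this is not a paired result. Within numbers 1 to 3 the groups did not overlap, as also for Hdac10 and for 9.99% of all genes in this direction. Within numbers 4 to 6, VPA replicate 4, at 90.7, lay just above VPA_OCA replicate 6, at 90.2. VPA replicate 5 lay above VPA_OCA libraries of numbers 1 to 3 only. The means were 86.7 ± 12.95 in VPA_OCA and 68.4 ± 14.6 in VPA (SD, n = 6 each), a 1.27-fold difference. On the log2 scale it was 0.35 ± 0.16 (SE), with an interval of 0.02 to 0.69, an unadjusted limma p of 0.041 and a limma adjusted p of 0.50. The difference therefore does not hold against the number of genes tested. The log2 difference was 0.34 within numbers 1 to 3 and 0.36 within numbers 4 to 6, and 0.53 without VPA replicates 4 and 5, the 2 libraries with muscle transcripts (limma adjusted p = 0.16). That last fit keeps VPA replicate 6 as the only VPA library of numbers 4 to 6. Muscle transcripts and number set therefore cannot be told apart in it. In the authors' deposited table Hdac8 had a p of 0.023 and an adjusted p of 0.18, the smallest of the 10 genes there as well, and 5.57% of the 12517 genes called present in that table had an adjusted p under 0.05.

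Class IIa enzymes have little deacetylase activity of their own and act as signal-dependent corepressors that bind MEF2 transcription factors, and in mouse liver they take part in the control of glucose production genes under glucagon. Hdac4 (ENSMUSG00000026313, chromosome 1, 91928779 to 92195699) ranged from 108 to 170 normalized counts in VPA_OCA (median 156) and from 132 to 185 in VPA (median 149), and the log2 fold change was -0.03 ± 0.13 (SE). VPA_OCA replicate 2 was the lowest library of all 12 for this gene. Hdac5 (ENSMUSG00000008855, chromosome 11, 102194432 to 102230166), the most abundant of the class, ranged from 512 to 905 normalized counts in VPA_OCA (median 728) and from 495 to 762 in VPA (median 684). Its log2 fold change was 0.10 ± 0.15 (SE), with an interval of -0.22 to 0.43 and a limma adjusted p of 0.90. The spread of Hdac5 within VPA_OCA, a coefficient of variation of 22.9%, was larger than the distance between the groups.

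Hdac7 (ENSMUSG00000022475, chromosome 15, 97792664 to 97844502), known in mouse for its roles in blood vessel endothelium and developing T cells, ranged from 92.6 to 150 normalized counts in VPA_OCA (median 124) and from 82.2 to 151 in VPA (median 145). Its log2 difference was -0.13 ± 0.17 (SE), with a limma adjusted p of 0.89, and -0.26 without VPA replicate 1, which held the lowest value of its group by a wide gap (limma adjusted p = 0.61). It was -0.04 without VPA replicates 4 and 5, a fit that keeps replicate 6 as the only VPA library of numbers 4 to 6. Endothelial markers lay on the same side, 9 of 9 lower on average in VPA_OCA with a median log2 difference of -0.19, though none of the 9 passed. Within numbers 1 to 3, 6 of the 9 were higher in VPA_OCA, and within numbers 4 to 6 all 9 were lower. With a term for these sets, 1 of the 9 passed, Lyve1 of lymphatic and sinusoidal endothelium (limma adjusted p = 0.031), where 2.13% of all genes passed. Their summed level ranged from 3194 to 4809 normalized counts in VPA_OCA (median 3829) and from 3092 to 5744 in VPA (median 4582), and their part in the value of Hdac7 was not tested. Markers of other cell types were lower too, 5 of 6 for macrophages, 5 of 7 for T and B cells and 4 of 7 for stellate cells and smooth muscle. For hepatocytes it was 4 of 6 and for cholangiocytes 2 of 5, and none of these markers passed. In whole liver, fewer cells of a type and less RNA per cell cannot be told apart. Hdac9 (ENSMUSG00000004698, chromosome 12, 34047580 to 34917095) ranged from 11.9 to 24.9 normalized counts in VPA_OCA (median 13.7) and from 8.43 to 21.2 in VPA (median 14.5). Its interval, -0.39 to 0.71 on the log2 scale, was the widest of the 10. The authors did not call Hdac9 present. Its gene limits, introns included, share 4732 bases with those of AC154903.1 on the same strand, an RNA at 9.65 normalized counts in VPA_OCA and 9.82 in VPA. Whether the transcripts of the 2 share sequence was not checked, so it is not known if their reads are mixed.

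Of the class IIb enzymes, Hdac6 deacetylates tubulin and the chaperone Hsp90, and the human enzyme of Hdac10 deacetylates the polyamine acetylspermidine. Hdac6 (ENSMUSG00000031161, chromosome X, 7930120 to 7947889) ranged from 251 to 531 normalized counts in VPA_OCA (median 432) and from 352 to 460 in VPA (median 398). The mean was 410 ± 107 in VPA_OCA and 397 ± 39.7 in VPA (SD, n = 6 each), and the VPA values lay inside the VPA_OCA range. The log2 fold change was 0.01 ± 0.16 (SE), with an interval of -0.34 to 0.35. Hdac10 (ENSMUSG00000062906, chromosome 15, 89123307 to 89128700) ranged from 209 to 277 normalized counts in VPA_OCA (median 234) and from 199.6 to 293 in VPA (median 222), and the log2 fold change was 0.07 ± 0.12 (SE). VPA held both the lowest and the highest library for Hdac10. Within numbers 1 to 3 its VPA_OCA libraries, at least 227, lay above its VPA libraries, at most 223, as for 9.99% of all genes. Of the other genes whose limits overlap those of a member, Slc48a1 shares 29 bases with Hdac7 on the opposite strand. Those within Hdac4 and Hdac8 had at most 3.41 normalized counts.

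Several of these genes differed more between libraries of different replicate number than between the groups. Mitochondrially encoded genes held 5.84% to 7.51% of the normalized counts in the libraries numbered 4 to 6 and 9.09% to 11.7% in those numbered 1 to 3, and their part in the values below was not tested. Hdac5 measured 615, 512 and 601 normalized counts in VPA_OCA replicates 1 to 3 and 841, 905 and 858 in replicates 4 to 6, against 495, 617 and 632 in VPA replicates 1 to 3 and 742, 736 and 762 in replicates 4 to 6. All 6 libraries numbered 4 to 6 thus lay above all 6 numbered 1 to 3, as was so for 5.65% of all genes. As log2 differences of libraries 4 to 6 over 1 to 3, Hdac5 stood at 0.48, Hdac6 at 0.40, Hdac8 at 0.35, Hdac7 at 0.29 and Hdac4 at 0.23, while Hdac3 stood at 0.02, Hdac1 at -0.01 and Hdac2 at -0.20. The median over all tested genes was -0.02, and 34.3% of them differed by more than 0.4 in either direction, against 1 of the 10, Hdac5. This division was found in these libraries and not given by the labels, so these are descriptions without a test.

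**Figure D3:**
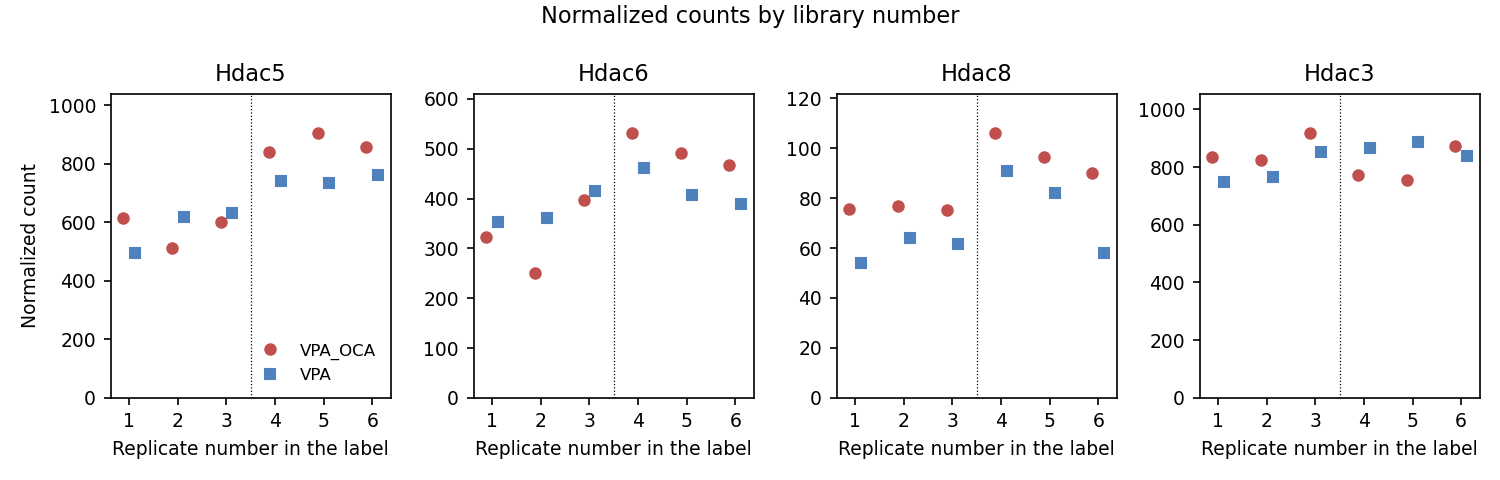
Normalized count of Hdac5, Hdac6, Hdac8 and Hdac3 in each library against the replicate number of its label, with VPA_OCA as red circles left of VPA as blue squares and a dotted line between numbers 3 and 4. Hdac5 is higher in all libraries numbered 4 to 6, Hdac8 is higher in VPA_OCA at each number, and Hdac3 lies between 748 and 918 in every library.

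When limma also held a term for the 2 number sets, 2.13% of all genes passed (1.34% higher and 0.789% lower) and again none of the 10. Hdac8 came nearest, with a limma adjusted p of 0.20. With the replicate number itself as a block, 1.10% of all genes passed (210 in place of 137) and none of the 10. The sign of the difference was opposite in the 2 sets for 7 of the 10 genes. The share over all genes was not counted, so this is not read as particular to the 10. Hdac6 was the clearest case of opposite signs. It measured 323, 251 and 397 normalized counts in VPA_OCA replicates 1 to 3 against 352, 360 and 415 in VPA replicates 1 to 3, and 531, 491 and 467 in VPA_OCA replicates 4 to 6 against 460, 407 and 389 in VPA replicates 4 to 6. As log2 differences these were -0.23 in the first set and 0.25 in the second. Every VPA_OCA library numbered 4 to 6 exceeded every VPA library of that set, as for 9.53% of all genes. The same held for Hdac5, at least 841 in VPA_OCA and at most 762 in VPA within numbers 4 to 6. The interaction of Hdac6 had an unadjusted limma p of 0.035 and a limma adjusted p of 0.57, so a difference between the sets was not shown. An unadjusted interaction p under 0.05 was reached by 8.36% of all genes, and 0.0105% passed after adjustment, none of the 10 among them.

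By their pattern over the 12 libraries after removal of the group means, the genes most like Hdac1 among 10714 with a mean of at least 50 normalized counts were Pycrl and Plscr4. Those most like Hdac5 were Fam20a and Dennd1a, and those most like Hdac6 were Tcf7l2 and Dgkz. Because the libraries fall into 2 sets, the correlation is given within each set of 6 libraries. Pearson's r was 0.92 within numbers 1 to 3 and 0.86 within 4 to 6 for Hdac1 and Pycrl. For Hdac1 and Plscr4 it was 0.97 and 0.30. For Hdac5 it was 0.92 and 0.67 with Fam20a and 0.91 and 0.80 with Dennd1a. For Hdac6 it was 0.99 and 0.34 with Tcf7l2 and 0.93 and 0.70 with Dgkz. Plscr4 and Tcf7l2 were thus close to their deacetylase gene within the first set and not within the second. These genes were picked as the highest of many and carry no test.

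Upstream sequence from the RefSeq promoter table (GRCm38.p6) was read for 7 of the 10 genes, with 11 start sites, over 250 bases before each start site. That table held no entry for Hdac1 or Hdac10. Hdac3 was left out of the search, so the counts below say nothing about its promoter. Measured against the gene limits of the authors' table, 5 of the 11 windows lay outside the gene, 5 lay wholly inside it at inner start sites, that of Hdac4 among them, and that of Hdac8 had 201 of its bases inside. The FXR inverted repeat AGGTCANTGACCT, searched on both strands, was in none of the 11, and in 0.00609% of 32851 promoters of that table. Its half-site AGGTCA, also on both strands, was in 2 of the 11, an inner start site each of Hdac7 and Hdac9, against 14.02% of all promoters. The GC box GGGCGG, which binds factors of the SP and KLF families, was on either strand in 5 of the 11, against 32.7% of all promoters. A match of letters is not a bound site. The windows at the outermost start sites of Hdac5 and Hdac9 are shown for the widest contrast in level within 1 class, and that of Hdac8 as the gene nearest to the threshold; capitals mark a GC box, and all run 5' to 3' on the minus strand.
Hdac5, chr11:102230173-102230422: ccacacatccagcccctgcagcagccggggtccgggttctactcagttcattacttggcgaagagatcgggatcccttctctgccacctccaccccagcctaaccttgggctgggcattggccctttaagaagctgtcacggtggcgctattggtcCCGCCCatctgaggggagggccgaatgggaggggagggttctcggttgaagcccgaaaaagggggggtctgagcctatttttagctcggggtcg
Hdac9, chr12:34917096-34917345: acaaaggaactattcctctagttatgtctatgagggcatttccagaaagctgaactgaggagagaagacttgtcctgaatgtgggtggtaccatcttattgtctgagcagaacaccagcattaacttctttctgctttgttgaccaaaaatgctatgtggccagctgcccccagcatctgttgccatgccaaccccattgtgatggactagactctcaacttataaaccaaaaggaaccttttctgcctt
Hdac8, chrX:102505159-102505408: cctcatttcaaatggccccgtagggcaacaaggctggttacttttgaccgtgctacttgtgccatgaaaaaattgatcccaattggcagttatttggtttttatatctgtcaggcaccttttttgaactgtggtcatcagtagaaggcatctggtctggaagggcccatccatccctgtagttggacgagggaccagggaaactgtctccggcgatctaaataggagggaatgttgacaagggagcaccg
The Hdac5 sequence has a GC content of 60.8%, 12 CpG dinucleotides and 1 GC box. The Hdac9 sequence has 44.4%, 0 CpG dinucleotides and no GC box, where 7.87% of all promoters have no CpG. The Hdac8 sequence has 48.4%, 6 CpG dinucleotides and no GC box, and the median promoter of the table has 52.4% and 6 CpG dinucleotides. The 4 start sites of Hdac7 ranged from 56.4% to 74.0%. Hdac5 at 18.4 FPKM and Hdac9 at 0.213 FPKM are thus set apart in this window by base composition as well as in level, in 2 genes picked for their levels and without a test. The contrast does not run through the class. Hdac4, at 3.18 FPKM, has 65.2%, 23 CpG dinucleotides and 4 GC boxes, more than Hdac5. The start sites of Hdac7, at 1.85 FPKM, have 5 to 25 CpG dinucleotides.

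Transcripts of the partners of these enzymes, of other deacetylases and of the opposing acetyltransferases also gave no call. Of 109 tested genes in 13 lists, 0 passed by limma in either direction, where 0.721% of all genes passed, and 12 had an unadjusted p under 0.05, where 9.55% of all genes did. With the term for the numbers 1 of the 109 passed, Hsp90aa1, lower in VPA_OCA, where 2.13% of all genes passed. Hsp90aa1, the inducible form of the chaperone that Hdac6 deacetylates, measured 1468 ± 182 normalized counts in VPA_OCA and 2031 ± 248 in VPA (SD, n = 6 each). Its 6 VPA_OCA values, at most 1647, all lay below the 6 VPA values, at least 1682. Such a lack of overlap, in either direction, held for 1.44% of all genes, and for Ywhae as well among the listed genes named below. The log2 difference of Hsp90aa1 was -0.47 ± 0.11 (SE), and the limma adjusted p was 0.056, or 0.015 with the term. The other 11 tested genes of that list did not pass. The autophagy receptor Sqstm1 and the tubulin gene Tuba1a had log2 fold changes of 0.26 and 0.22.

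In the corepressor complexes that hold the class I enzymes, 0 of 5 NCoR/SMRT genes, 0 of 15 Sin3 genes, 0 of 9 NuRD genes, 0 of 8 CoREST genes and 0 of 3 MiDAC genes passed. The median log2 fold changes of these lists were -0.08, 0.01, -0.03, -0.05 and 0.10. The corepressor Ncor1, the scaffold that activates Hdac3, measured 1107 ± 211 normalized counts in VPA_OCA and 1218 ± 170 in VPA, and its partner Tbl1xr1 572 ± 65.4 and 630 ± 75.3 (SD, n = 6 each). Brms1 of Sin3 had a log2 fold change of 0.22, Gatad2b of NuRD -0.13 and Rcor3 of CoREST 0.20. Rcor2 had -0.89, but at 1.41 ± 0.84 and 3.67 ± 1.92 normalized counts it rested on few reads.

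Of the partners of class IIa enzymes, 0 of 3 tested MEF2 genes passed, with Mef2c, Mef2d and Mef2a at log2 fold changes of -0.23, -0.19 and -0.05. Mef2b stayed under 5 normalized counts in every library. Of 7 genes of 14-3-3 proteins, which hold phosphorylated class IIa enzymes in the cytoplasm, 0 passed. Ywhag measured 1248 ± 222 normalized counts in VPA_OCA and 1522 ± 84.3 in VPA (SD, n = 6 each, limma adjusted p = 0.34), and Ywhae 3194 ± 179 and 2882 ± 70.4. The 6 VPA_OCA values of Ywhae, at least 3001, lay above the 6 VPA values, at most 2971, and its limma adjusted p was 0.54. Of 12 kinase genes 0 passed, with Camk2g at 209 ± 20.9 in VPA_OCA and 170 ± 12.2 in VPA (limma adjusted p = 0.27).

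Among 8 other deacetylase genes, Hdac11 and the NAD-dependent sirtuins, 0 passed, and the mitochondrial desuccinylase Sirt5 had the smallest p, at 413 ± 42.0 normalized counts in VPA_OCA and 348 ± 46.9 in VPA (SD, n = 6 each, limma adjusted p = 0.45). Of 11 acetyltransferase genes 0 passed, 8 of them lower on average in VPA_OCA, with a median log2 difference of -0.16. Kat6b measured 154 ± 32.3 in VPA_OCA and 205 ± 42.3 in VPA, and Crebbp 297 ± 49.6 and 349 ± 28.9 (SD, n = 6 each, limma adjusted p = 0.43 and 0.51). Of 8 acetyl-lysine readers 0 passed, with a median of -0.10. Of 8 genes known to rise under deacetylase inhibitors in cultured cells, 0 passed. The linker histone H1f0 measured 2740 ± 170 in VPA_OCA and 2366 ± 189 in VPA, and Txnip 2252 ± 340 and 2965 ± 833 (SD, n = 6 each, limma adjusted p = 0.36 and 0.51). The members of that list therefore lay on both sides of 0, and the median was -0.05.

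**Figure D4:**
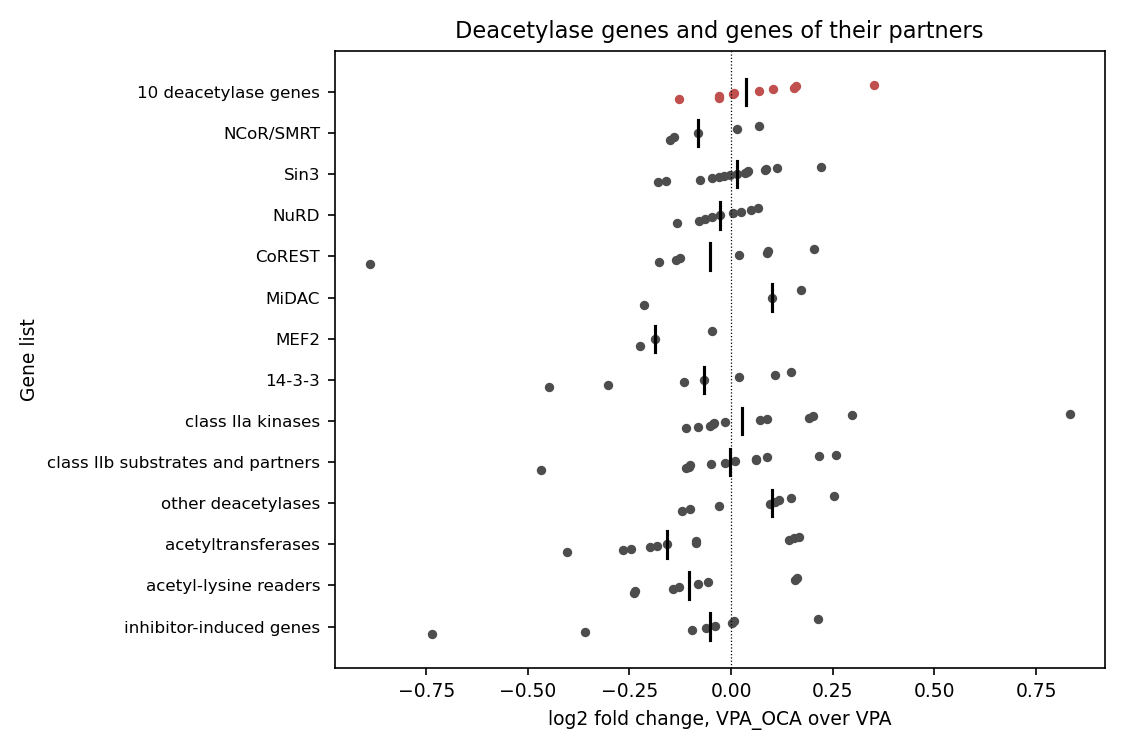
log2 fold change of VPA_OCA over VPA for each tested gene, with the 10 histone deacetylase genes in red and 13 lists of related genes in grey, 1 point per gene and a black bar at each median. Most points lie within 0.5 of 0, and the point farthest to the left is Rcor2, at -0.89 with few reads.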

How the data were processed

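Frozen livers were extracted with Trizol and made into TruSeq RNA libraries, per the labels' protocols, from 6 mice per treatment. Per the submitters' processing notes, edgeR and the build GRCm38.p5 were used; how reads were aligned and counted, and whether strand was used, is not given in the sources used here. All values come from 1 table of 34986 genes whose columns carry the sample titles (0 columns of samples unused). The deposited normalized counts (a signal per gene), FPKM values, log2 ratios, p-values and their adjusted form, with the GC fraction and length of each gene, were made by the authors, per the file headers. Among the normalized counts 89 cells with a decimal comma before an exponent were too large by a factor of 1000 and were scaled down. With the same repair, the authors' adjusted p-values could be recomputed from their p-values to within 0.538%. Gene symbols that had become dates, 26 in number, were restored from the gene IDs.

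The test was limma 3.58.1 (R 4.3.3) on log2(value + 1), with an intensity trend and group as the only term. The values are not whole reads, so no count model was used. Of the 30 library pairs within a group, each differed by at least 15.9 times what sampling alone gives, so each library was counted once. Deviations from the group means correlated by 0.15 to 0.48 between libraries of the same number (11481 genes), so the number was also fitted as a block. This pairing comes from the data and not from the labels, and 2 of 6 VPA_OCA and 2 of 6 VPA libraries correlated best with their own number. Between the groups, the lowest correlation within a number set was also 0.15, and the highest across the sets was -0.038. The correlation by number therefore does not show pairs beyond the split into sets. The members, the lists and the split by number were chosen with earlier results of these data known. Genes were named by rule: all members, up to 3 genes of each list by p, the 2 genes most like the leading member of each class, and Slc51b and Cyp8b1. Alternatives were other filters, scalings, pseudocounts, thresholds and limma settings, FPKM, each number set alone and each library left out. Figures were drawn with matplotlib 3.10.9.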

Additional observations from a re-analysis of the deposited data

Results flagged for a closer look

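Among 110 groups of 6 values, 8 held a library far from the other 5, where chance gives about 1 in 20. These groups came from Hdac1 to Hdac11, up to 3 genes of each list of related genes by p, Slc51b and Cyp8b1. The muscle gene Acta1 and the endothelial markers Lyve1 and Tie1 were added. Genes named for another reason were not looked at in this way. Hdac7 measured 82.2 normalized counts in VPA replicate 1, against 135 to 151 in the other VPA libraries. Hdac9 measured 24.9 in VPA_OCA replicate 6, against 11.9 to 16.7. Within VPA_OCA, Sap18 of the Sin3 complex (985) and the stress gene Gadd45b (77.0) were highest in replicate 2, Rcor2 (3.13) in replicate 3 and Txnip (2935) in replicate 5, and Mef2c was lowest in replicate 4 (22.7). The muscle actin Acta1 measured 164 in VPA replicate 4. Acta1 was looked at because of its muscle values, so this flag, counted among the 8, is not to be set against chance.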

How the results depend on the processing

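None of the 10 deacetylase genes passed under any of 31 alternatives, leaving out each library included, and the smallest limma adjusted p was 0.16 (Hdac8 without VPA replicates 4 and 5). No interaction with the number sets passed for them under 8 alternatives. Over all genes 137 passed in the main comparison, 93 to 148 with 1 library left out, 210 with the replicate block, 404 with the term for the numbers, 419 with that term and a GC correction, 72 within numbers 4 to 6 alone, and 223 and 62 at thresholds of 0.10 and 0.01. Hdac1, Hdac7 and Hdac8 kept their sign under all 31. Other filters, thresholds, a fit without trend and terms for the number leave the estimate as it is, so these could not turn a sign. The threshold of 0.01 also could not add a call. For the other 7 genes the sign turned under at least 1 alternative. Within numbers 4 to 6 the log2 fold change was 0.0304 for Hdac2, -0.11 for Hdac3, 0.0672 for Hdac4 and -0.0668 for Hdac10; within 1 to 3 it was -0.0103 for Hdac5, -0.0467 for Hdac9 and -0.23 for Hdac6. Median-ratio scaling gave -0.0018 for Hdac3 and -0.0031 for Hdac6, the GC correction, with or without the term, -0.0035 and -0.0042, and array weights 0.0133 for Hdac4. With 1 library left out, values ran from -0.0774 to 0.0237 for Hdac2, -0.0229 to 0.0334 for Hdac3, -0.0684 to 0.0619 for Hdac4 and -0.0784 to 0.14 for Hdac6. The GC correction and the length of the longest coding transcript were chosen after the data were seen. The cause of these changes was not tested. DESeq2 was not run, as the table holds no raw counts. For Hdac9, at about 15 normalized counts, few reads limit the precision.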
